A study of Mus musculus with 12 samples.

Results

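Early subjective night, circadian time (CT) 14, was compared with the rest of the cycle in CD8+ T cells, the cytotoxic lymphocytes, taken from mouse lymph nodes. The members are the 2 libraries whose label gives CT14, out of 12, and they were set against the 10 libraries of CT2, CT6, CT10, CT18 and CT22. All animals were male C57BL/6J mice, 8 weeks of age, without a named mutation or drug, and all had been held in constant darkness, so that time was set by the internal clock alone. Polyadenylated RNA was sequenced from 1 library per time on day 1 and 1 on day 2. In this scale CT0 to CT12 is the subjective day, when mice rest, and CT14 lies shortly after the start of the active phase. How many animals entered a library is not given in the labels, so every p-value here measures the spread between libraries, which may be partly technical. These are bulk samples, in which fewer cells of a kind and less RNA per cell cannot be told apart.

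Chaperones are proteins that help others fold. Hsp70 binds unfolded stretches with the help of J-domain (Hsp40) partners, Hsp110 acts as its nucleotide exchange factor, and Hsp90 with its co-chaperones matures kinases and steroid receptors. Heat shock factor 1 (HSF1) switches many of these genes on when proteins unfold, by binding repeats of the letters nGAAn, the heat shock element. Body temperature of mice is higher in the active phase, and the RNA-binding proteins CIRBP and RBM3 are known to be made more in mild cold.

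Counts on genes were 32205484 and 33497078 in the CT14 libraries and 24689964 to 28628059 in the others, so that CT14 was sequenced deepest and the ranges did not overlap. The shares of unmapped, multimapping, ambiguous, mitochondrial and ribosomal protein reads at CT14 lay within the range of the others or, for mitochondrial reads, overlapped it. CT2 of day 1 stood apart from the other libraries, with 13.35% of counts on ribosomal protein genes against at most 10.67% elsewhere outside CT14, and 3.407% on mitochondrially encoded genes. Cd8a stood at 1421 and 1429 CPM (a gene's count relative to the library total, with TMM scaling) at CT14 and at 1234 to 1613 CPM in the others, and Cd8b1 at 1127 and 1147 against 977.5 to 1282 CPM. Summed markers of monocytes and macrophages, neutrophils, B cells, plasma cells, NK cells, dendritic cells, CD4 T cells and CD8 T cells overlapped between CT14 and the rest, and no marker of any list passed the test. Of 15 monocyte and macrophage markers 14 had a lower mean at CT14, with sums of 495 and 645 CPM against 291.5 to 1299.7 CPM. The exception to the overlap was stroma and endothelium, where 8 of 11 markers were tested and summed to 140 and 149 CPM at CT14 against 151 to 193 CPM. All 8 had a lower mean at CT14, and their part in the results below was not tested.

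Of 16396 genes tested, 186 (1.13%) differed at CT14 from the mean of the other 5 times at an adjusted p under 0.05. Every adjusted p below comes from the quasi-likelihood test of edgeR, adjusted over all tested genes by the Benjamini-Hochberg method. They were split evenly, 93 higher (0.567%) and 93 lower (0.567%). The genes that rose had a median log2 difference of 0.48, and 40 of them changed by at least 1.5-fold. Those that fell had a median of -0.52, with 34 of that size. In 89 of the 93 higher genes both CT14 libraries lay above all 10 others, as in 4.72% of all tested genes, and in 92 of the 93 lower genes both lay below all others, as in 5.07%. The lower genes were expressed at a median of 19.5 CPM and the higher ones at 41.5 CPM. Of the lower genes 26.9% did not code for protein, of the higher ones 11.8% and of all tested genes 20.4%. Only 19 of the 93 higher genes belonged to the chaperone lists, and none of the lower ones did, although the lists leave out the J-domain gene Dnajc10, which was called lower.

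**Figure D1:**
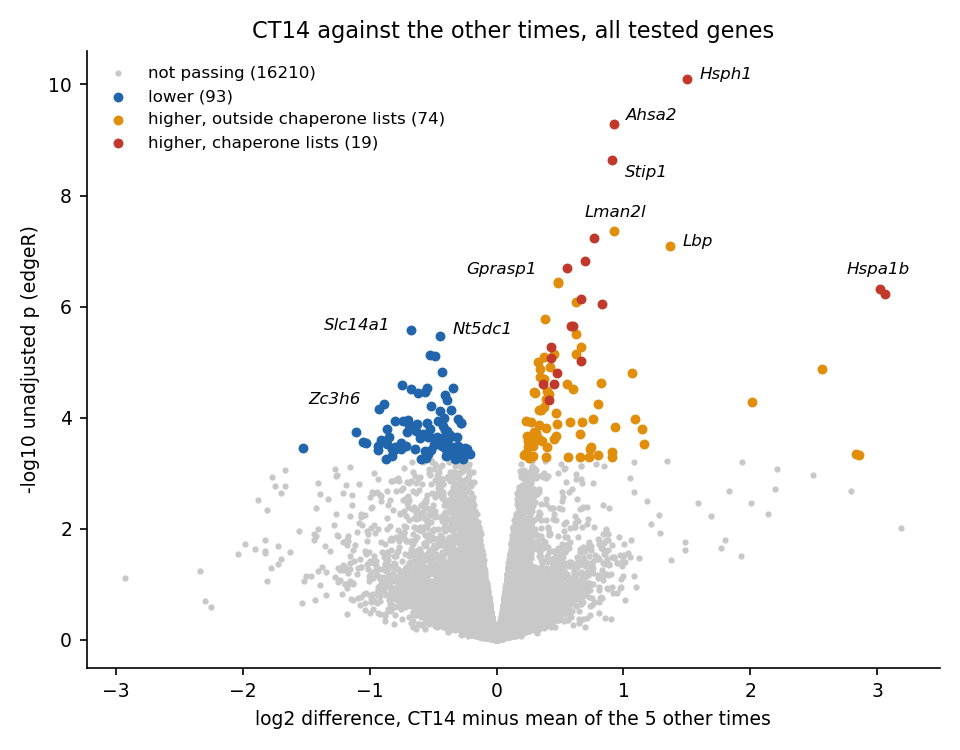
Each point is 1 of 16396 tested genes, with the log2 difference of CT14 from the mean of the 5 other times on the x axis and the -log10 unadjusted p on the y axis. Red points are the 19 higher genes of the chaperone lists, orange the 74 other higher genes and blue the 93 lower genes, and Hsph1 has the smallest p.

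These counts rest on both CT14 libraries and move with the libraries they are set against. With only the CT14 library of day 2, 27 genes were higher and 1 lower, and with only that of day 1, 16 and 1, the lone library being assumed to vary like the rest. Without CT2 of day 1, 280 were higher and 360 lower, without CT2 of day 2, 332 and 316, and without both CT2 libraries 273 and 320. Leaving out single CT6, CT10, CT18 or CT22 libraries gave 48 to 84 higher and 15 to 76 lower genes. With the day of collection as a block, 64 genes were higher (62 of the 93) and 32 lower (32 of the 93), and all 19 chaperone genes kept their call. With all libraries thinned to the smallest depth, 79 were higher (77 of the 93) and 72 lower (62 of the 93), again with all 19 chaperone genes. No called gene changed direction under any alternative.

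Promoter sequences are shown for a few of the called genes, and whether their letters bear on the changes was not tested. They are RefSeq windows of 300 bases on GRCm38.p6, from 250 before to 50 after a gene's start, printed 5′ to 3′ on the gene's strand. The first 4 belong to chaperone genes that rose, with capitals marking a heat shock element: the 3-unit form, GAANNTTC followed by NN and GAA on either strand, for Hsph1 (chr5:149636266-149636565, minus strand), Chordc1 (chr9:18292017-18292316, plus strand) and Hspd1 (chr1:55087883-55088182, minus strand), and the 2-unit form GAANNTTC for Hspa1b (chr17:34959189-34959488, minus strand). In Chordc1 and Hspd1 the capitals cover overlapping matches. Hsph1, Chordc1 and Hspd1 are the only higher chaperone genes in which the 3-unit form was found. The Hsph1 match starts 15 bases after the gene's start, and another Hspd1 window held no match.
Hsph1: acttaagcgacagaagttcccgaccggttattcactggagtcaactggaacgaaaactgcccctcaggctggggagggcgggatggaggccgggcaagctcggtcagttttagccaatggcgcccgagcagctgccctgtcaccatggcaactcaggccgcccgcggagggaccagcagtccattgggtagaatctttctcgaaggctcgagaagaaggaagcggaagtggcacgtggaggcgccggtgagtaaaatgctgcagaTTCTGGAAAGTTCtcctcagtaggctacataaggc
Chordc1: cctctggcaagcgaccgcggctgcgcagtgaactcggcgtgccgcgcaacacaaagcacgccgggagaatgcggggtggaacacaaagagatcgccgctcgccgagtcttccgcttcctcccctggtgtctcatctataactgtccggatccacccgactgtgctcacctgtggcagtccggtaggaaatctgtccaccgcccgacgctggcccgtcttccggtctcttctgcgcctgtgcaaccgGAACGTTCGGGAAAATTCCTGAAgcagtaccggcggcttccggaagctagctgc
Hspd1: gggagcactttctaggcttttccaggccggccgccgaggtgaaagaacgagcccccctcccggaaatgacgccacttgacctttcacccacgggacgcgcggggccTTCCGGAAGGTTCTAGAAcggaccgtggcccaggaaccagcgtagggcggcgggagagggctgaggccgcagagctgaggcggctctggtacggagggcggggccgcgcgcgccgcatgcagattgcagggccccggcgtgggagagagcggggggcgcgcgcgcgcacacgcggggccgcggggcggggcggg
Hspa1b: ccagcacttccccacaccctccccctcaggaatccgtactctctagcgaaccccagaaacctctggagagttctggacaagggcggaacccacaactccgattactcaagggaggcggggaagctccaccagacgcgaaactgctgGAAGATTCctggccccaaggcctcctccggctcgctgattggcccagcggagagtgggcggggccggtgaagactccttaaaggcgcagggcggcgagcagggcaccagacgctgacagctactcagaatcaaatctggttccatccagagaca
The next windows belong to called genes outside the chaperone lists, Lman2l (chr1:36445222-36445521, minus strand) and Dynll1 (chr5:115300941-115301240, minus strand), which rose, and Cirbp (chr10:80167589-80167888, plus strand), which fell. Here capitals mark the CCAAT box, the letters bound by the factor NF-Y, on either strand (CCAAT or ATTGG). Another Cirbp window held no match.
Lman2l: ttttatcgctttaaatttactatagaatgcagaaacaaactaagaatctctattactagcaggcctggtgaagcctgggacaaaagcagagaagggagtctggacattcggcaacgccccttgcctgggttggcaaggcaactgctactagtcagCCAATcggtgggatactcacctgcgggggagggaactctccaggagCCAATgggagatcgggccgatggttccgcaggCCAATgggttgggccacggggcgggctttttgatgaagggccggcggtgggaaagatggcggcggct
Dynll1: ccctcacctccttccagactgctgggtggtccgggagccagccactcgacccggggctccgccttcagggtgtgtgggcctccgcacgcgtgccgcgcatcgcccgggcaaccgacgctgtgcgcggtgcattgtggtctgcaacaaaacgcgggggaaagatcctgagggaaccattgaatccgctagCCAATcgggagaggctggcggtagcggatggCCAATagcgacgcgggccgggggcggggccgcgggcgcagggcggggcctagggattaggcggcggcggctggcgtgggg
Cirbp: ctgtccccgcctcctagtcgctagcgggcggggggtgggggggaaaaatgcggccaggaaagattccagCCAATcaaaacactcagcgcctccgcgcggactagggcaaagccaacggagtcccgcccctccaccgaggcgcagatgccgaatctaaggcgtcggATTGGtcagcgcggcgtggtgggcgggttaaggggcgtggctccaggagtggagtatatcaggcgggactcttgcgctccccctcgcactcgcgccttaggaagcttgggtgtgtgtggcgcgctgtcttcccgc

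A RefSeq window was at hand for 16 of the 19 higher chaperone genes, 48 of the 74 other higher genes, 73 of the 93 lower genes and 10733 of all tested genes, and a gene counted if any of its windows held the letters. The 3-unit heat shock element was found in 3 of the 16 (18.75%; Chordc1, Hspd1 and Hsph1), in 1 of the 48 (2.083%; Vwce) and in 1 of the 73 (1.37%; Eme2), against 0.5683% of all tested genes. The shorter GAANNTTC, which every 3-unit match also holds, was found in 8 of the 16 (50%), in 12.5% of the other higher genes, 9.589% of the lower ones and 7.09% of all. The other 2-unit form, TTCNNGAA, which every 3-unit match holds as well, was found in 18.75%, 10.42% and 10.96% of these groups and in 8.32% of all. Of 42 chaperone genes that did not pass and had a window, 4.762% held the 3-unit form and 14.29% each 2-unit form. The CCAAT box was found in 62.5% of the higher chaperone genes, 56.25% of the other higher genes, 30.14% of the lower genes and 42.47% of all. The E-box CACGTG, to which CLOCK and BMAL1 bind, was found in 12.5%, 8.333% and 6.849% of these groups and in 11.31% of all. These matches describe the windows and are no evidence of binding.

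Of the 19 chaperone genes that rose, 5 belong to the list of cytosolic Hsp70 and Hsp110, 8 to Hsp90 and its co-chaperones, 4 to the J-domain genes and 2 to chaperonins and mitochondrial chaperones. Hsph1, which encodes Hsp110, had 333 and 366 CPM at CT14 and 90.0 to 160 CPM (median 131) in the other libraries. Its 2.82-fold rise (95% interval 2.57 to 3.10) had the smallest p of all genes (adjusted p = 1.3e-06, edgeR). Hspa1b, an inducible Hsp70 gene that is nearly off at rest, had 16.9 and 22.9 CPM at CT14 and 0.46 to 6.99 CPM elsewhere, 8.11-fold (5.24 to 12.6). It lies on chromosome 17 beside its near-identical copy Hspa1a, so the reads of each are uncertain. Among the other Hsp70 genes Hspa4l and Hspa8 rose too (log2 difference 0.59 ± 0.07 and 0.66 ± 0.09, standard error), which makes 5 of 9 tested, and the list had a median of 0.64.

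Of the Hsp90 list 8 of 19 tested genes rose, with a list median of 0.42. Stip1, the adaptor that links Hsp70 to Hsp90, had 277 and 293 CPM against 123 to 170 CPM elsewhere (log2 0.91 ± 0.05). Ahsa2, a relative of the Hsp90 ATPase activator Ahsa1, was at 54.5 and 55.3 CPM against 23.3 to 34.2 CPM, 1.89-fold (1.77 to 2.03). The co-chaperone genes Chordc1 (0.77 ± 0.06), Fkbp4 (0.67 ± 0.07), Ahsa1 (0.60 ± 0.07), St13 (0.56 ± 0.05) and Ptges3 (0.45 ± 0.06) and the Hsp90β gene Hsp90ab1 (0.42 ± 0.06) rose by less on the log2 scale. Hsp90aa1, the inducible Hsp90 gene, had 462.5 and 502 CPM at CT14, but CT2 of day 1 reached 510.4 CPM while the other 9 ranged from 248.9 to 330.9. It missed the threshold with adjusted p = 0.066 and passed without that library (adjusted p = 3.64e-05, edgeR), without CT2 of day 2 (0.000285) and with DESeq2 (0.0381).

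Of the J-domain list, Dnaja1 (0.83 ± 0.08), Dnajb1 (0.70 ± 0.06), Dnajb2 (0.48 ± 0.06) and Dnaja4 (0.43 ± 0.05) rose, 4 of 19 tested, and the list median was 0.06. The list does not hold Dnajc10, a J-domain gene of the endoplasmic reticulum that was called lower. Among 14 chaperonin and mitochondrial genes, Hspd1 (Hsp60; 0.43 ± 0.05) and Cct3, a subunit of the TRiC chaperonin (0.36 ± 0.05), rose. Hspe1, the Hsp10 partner that shares Hspd1's promoter region head to head, stood at 145 and 159 CPM against 109 to 191 CPM. It did not pass (adjusted p = 0.524, edgeR). The 191 CPM were those of CT2 of day 1, and the next highest library outside CT14 had 142.8 CPM, below both CT14 libraries. None of the 7 nucleotide exchange factor genes tested, among them Bag3 (0.34 ± 0.13), and none of 4 small heat shock protein genes passed. In all, 19 of 72 tested genes of these lists rose and 0 fell, beside 0.567% of all tested genes in each direction, and 26 had both CT14 libraries above the rest. The factor gene Hsf1 itself stood at 65.2 and 62.3 CPM against 51.3 to 61.0 CPM (0.16 ± 0.06, adjusted p = 0.30). Folding genes of the endoplasmic reticulum had 0 of 22 past the threshold, with a median of 0.10 and Hsp90b1 at 0.32 ± 0.08.

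**Figure D2:**
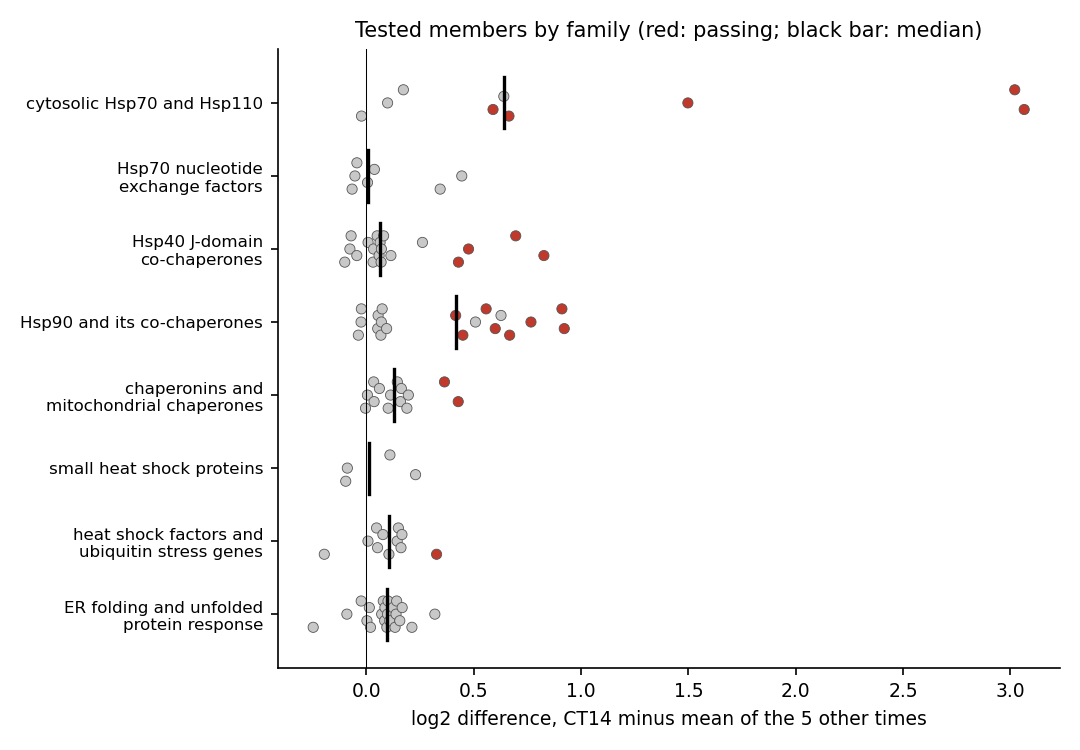
Each point is a tested gene of the named list and its position on the x axis the log2 difference of CT14 from the mean of the 5 other times. Red points passed and black bars are list medians, which range from 0.01 for exchange factors and small heat shock proteins to 0.64 for the Hsp70 and Hsp110 genes.

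Called genes outside the chaperone lists are given below by the role of their product. These groupings were made with the values in view, are no tested lists and say nothing of genes of the same role that did not pass. The gene with the largest rise among those of at least 5 CPM was Lman2l, which encodes a lectin that carries glycoproteins out of the endoplasmic reticulum. It had 40.8 and 41.4 CPM at CT14 and 17.2 to 24.9 CPM (median 22.6) in the others. The 10 other libraries thus kept within a narrow band that the CT14 pair left upward, 1.90-fold (1.71 to 2.11; adjusted p = 0.00018, edgeR). Lman2l lies on chromosome 1 at 36419871 to 36445271 (ENSMUSG00000001143.13). Of the named genes only Lman2l, Lbp and the chaperone genes Hsph1, Ahsa2, Stip1, Chordc1, Dnajb1, St13 and Fkbp4 passed under all alternatives in which they were tested. Lbp was not tested in the alternative that asked for a mean of at least 5 CPM.

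Called genes whose products act at the endoplasmic reticulum went in both directions. P4ha1, the catalytic subunit gene of the enzyme that hydroxylates prolines of collagen, had 66.1 and 72.7 CPM against 37.3 to 50.3 CPM, 1.54-fold (1.38 to 1.72). It was the sole member of 15 hypoxia-responsive genes to pass in either direction, and Pdk1 of that list stood at -0.21 ± 0.07 (adjusted p = 0.169). Ubxn4, which acts in degradation of misfolded proteins at the endoplasmic reticulum, rose by 0.38 ± 0.04 and the membrane protein gene Tmem33 by 0.42 ± 0.06. Dnajc10, a J-domain disulfide reductase gene of the endoplasmic reticulum, had 83.0 and 84.5 CPM against 93.8 to 112 CPM and was called lower (-0.25 ± 0.05; adjusted p = 0.0399, edgeR, and 0.0697 with the day as a block).

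Some called higher genes encode parts of the microtubule system. Dynll1, a light chain of the dynein motor, had 139 and 153 CPM at CT14 and 76.0 to 108 CPM (median 93.5) elsewhere, 1.59-fold (log2 0.67 ± 0.08; adjusted p = 0.00383, edgeR). Its paralogue Dynll2 was at 63.9 and 64.7 CPM against 42.5 to 55.3 CPM, a smaller rise of 0.39 ± 0.07. Per length Dynll1 was the more abundant, at 412 against 33.4 TPM at CT14. Tubb4b, a β-tubulin gene, rose by 0.30 ± 0.04. Bicd2, an adaptor that couples dynein to cargo, rose by 0.23 ± 0.04, with a blocked adjusted p of 0.0504.

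Genes of ubiquitin handling and stress that rose were Trim65, a ubiquitin ligase gene (52.2 and 54.4 CPM against 27.4 to 41.2 CPM; 0.60 ± 0.09), Ubfd1, which encodes a protein with a ubiquitin-like domain (64.2 and 63.0 against 41.2 to 51.4 CPM; 0.49 ± 0.04), and the proteasome shuttle gene Ubqln1 (0.33 ± 0.06). Ubqln1 was the only 1 of 11 tested heat shock factor and ubiquitin stress genes to pass, and 0 of 37 proteasome subunit genes did. Of all tested genes 1.13% passed. Ccdc117 had 75.2 and 81.3 CPM against 45.1 to 60.8 CPM, 1.54-fold (log2 0.62 ± 0.06; adjusted p = 0.000956, edgeR).

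Transporter, metabolic and sorting genes included Slc5a3, whose product takes up the osmolyte myo-inositol with sodium. It stood at 22.7 and 22.1 CPM at CT14 against 12.5 to 17.7 CPM, 1.54-fold (1.37 to 1.73). Mat2a, which makes S-adenosylmethionine, the methyl donor of the cell, rose by 0.34 ± 0.05, from a median of 215.5 CPM to 282 and 268 CPM. Gprasp1, a sorting gene for G protein-coupled receptors, had 68.4 and 68.1 CPM against 43.2 to 56.7 CPM (0.49 ± 0.04; adjusted p = 0.000613, edgeR). Arrdc4, an α-arrestin gene, rose by 0.58 ± 0.10, from 8.40 to 10.9 CPM elsewhere to 13.6 and 15.2 CPM. Lbp, which encodes a binding protein for bacterial lipopolysaccharide, lay just under 5 CPM on average and had 8.12 and 9.21 CPM at CT14 against 2.54 to 4.84 CPM, 2.58-fold (log2 1.37 ± 0.11).

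Several called higher genes encode proteins that bind DNA or RNA. Banp, which encodes a DNA-binding protein of the nuclear matrix, had 48.6 and 45.0 CPM against 26.3 to 36.6 CPM (0.55 ± 0.08). Samd1 (0.45 ± 0.06), whose product binds unmethylated CpG islands, the homeobox gene Pknox1 (0.37 ± 0.05) and the zinc finger gene Zbtb2 (0.39 ± 0.06) rose and kept their call with the block. Sfpq, an abundant splicing and paraspeckle protein gene, went from 341 to 443 CPM elsewhere to 527 and 509 CPM at CT14, 1.32-fold (1.21 to 1.44). Calls that were lost with the day as a block were those of the paraspeckle gene Rbm14 (0.39 ± 0.08; blocked adjusted p = 0.0733, edgeR), the NF-Y subunit gene Nfya (0.22 ± 0.05; 0.0847), the splicing activator gene Tra2a (0.24 ± 0.05; 0.0579), the corepressor gene Bcorl1 (0.47 ± 0.08; 0.0512) and the RNA-binding gene Mex3a (0.47 ± 0.09; 0.0662). Tra2a was the only 1 of 13 SR splicing factor genes to pass, its relative Tra2b stood at 0.23 ± 0.05 (adjusted p = 0.0727), and 0 of 6 splicing kinase genes did. Rmrp, the RNA of the RNase MRP ribozyme and a transcript of RNA polymerase III, had 12.6 and 12.5 CPM against 3.56 to 10.2 CPM (0.91 ± 0.18; blocked adjusted p = 0.0778). The libraries were selected for polyadenylated RNA, and whether Rmrp counts follow its level in the cells was not tested. Ptov1 stood at 9.67 and 11.0 CPM against 5.16 to 7.78 CPM (0.66 ± 0.13; blocked adjusted p = 0.0864).

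Among genes with a known part in T cells, Ccnd2, the cyclin D2 gene, had 818 and 878 CPM at CT14 and 599 to 740 CPM elsewhere, 1.28-fold (1.17 to 1.39). It was the only 1 of 24 cell cycle genes to pass in that list, although Dbf4, a replication kinase activator gene chosen after its values were seen, rose by 0.37 ± 0.05. Irf1, a transcription factor gene of the interferon response, stood at 360 and 336 CPM against 273 to 313 CPM (0.24 ± 0.05; blocked adjusted p = 0.067), 1 of 23 genes of its list. Ccr9, the gut-homing receptor gene, alone passed of 22 trafficking and adhesion genes, with 213 and 204 CPM, but CT2 of day 1 was higher at 222 CPM, so the groups overlapped. Ulbp1, whose product is a ligand of the receptor NKG2D, had 43.5 and 39.6 CPM against 25.1 to 33.1 CPM (0.46 ± 0.09; blocked adjusted p = 0.0526). Cybc1, needed for the NADPH oxidase, and the adaptor gene Traf4 rose by 0.34 ± 0.05 and 0.41 ± 0.06.

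**Figure D3:**
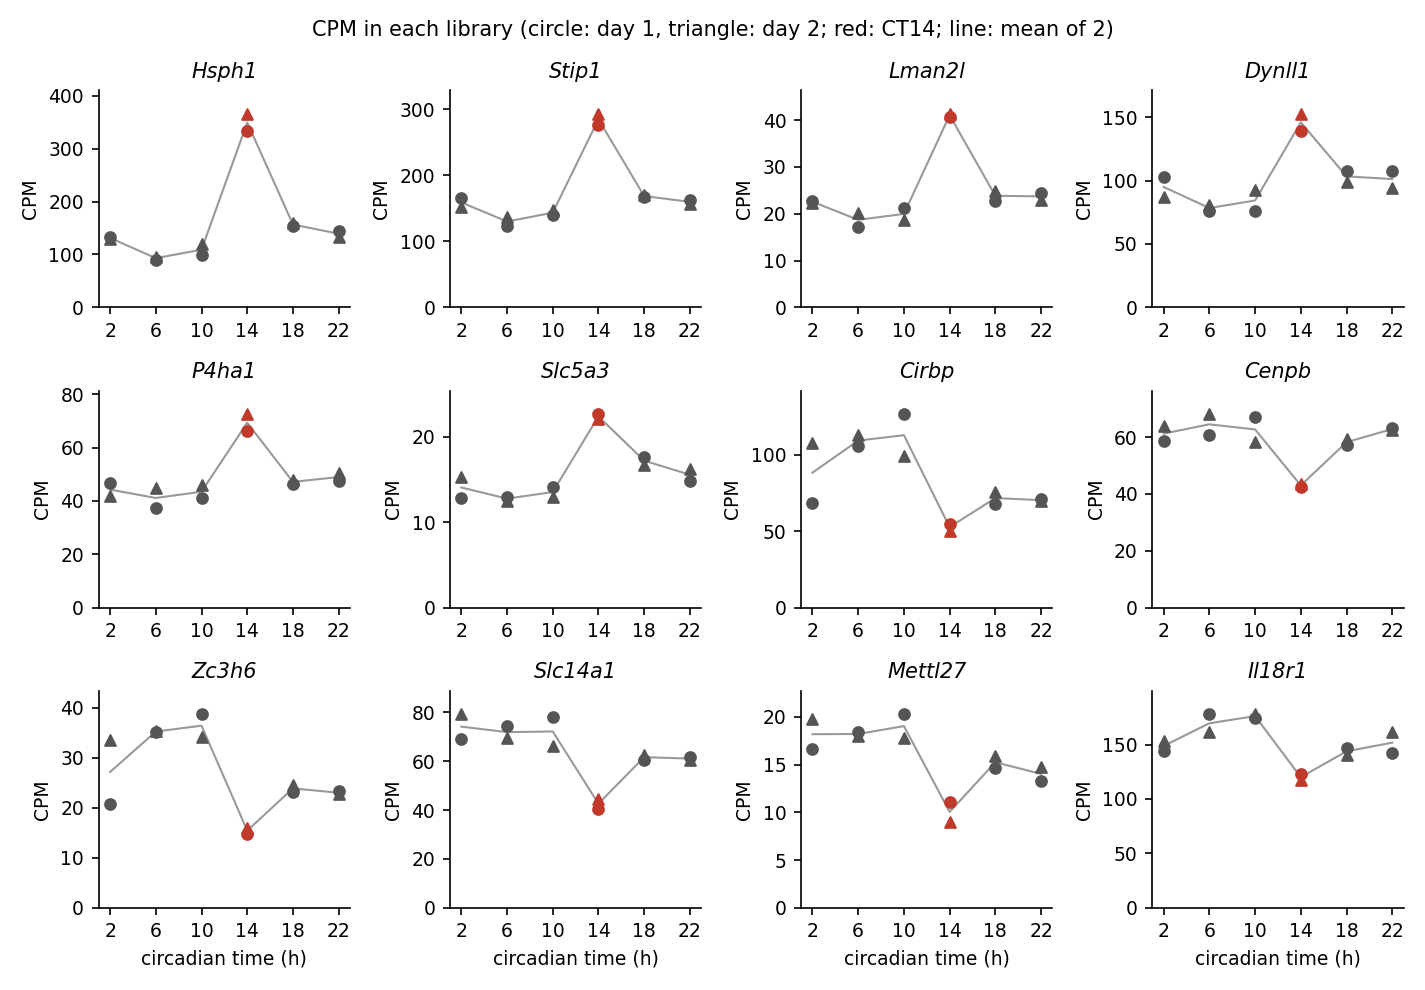
Each panel gives CPM in the 12 libraries by circadian time in hours, with circles for day 1, triangles for day 2, red for CT14 and a line through the mean of the pair at each time. Hsph1, Stip1, Lman2l, Dynll1, P4ha1 and Slc5a3 are highest at CT14, and Cirbp, Cenpb, Zc3h6, Slc14a1, Mettl27 and Il18r1 are lowest there on both days.

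Among the genes that fell, several encode proteins that bind or process RNA. Cirbp, the cold-inducible RNA-binding protein gene, had 54.9 and 50.4 CPM at CT14. The other libraries ranged from 67.6 to 127 CPM (median 87.3), with CT6 and CT10 between 98.9 and 127 and CT18 and CT22 between 67.6 and 75.7. Its fall to 0.594-fold (0.477 to 0.740; log2 -0.75 ± 0.14) had an adjusted p of 0.0377 by edgeR, and of 0.0676 with the day as a block. Rbm3, the other cold-inducible gene, stood at 261 and 237 CPM against 244 to 383 CPM and did not pass (-0.29 ± 0.07; adjusted p = 0.0881).

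Zc3h6, a CCCH zinc finger gene, had 14.81 and 16.03 CPM against 20.8 to 38.7 CPM, the largest fall among called named genes of at least 5 CPM (0.540-fold, 0.436 to 0.668). Hnrnpa1, a major splicing regulator gene, stood at 425 and 401 CPM against 464 to 595 CPM (-0.36 ± 0.07; blocked adjusted p = 0.0548). Xrn2, the nuclear exonuclease gene that ends transcription, was at 297 and 302 CPM against 322 to 394 CPM (-0.27 ± 0.06; blocked adjusted p = 0.0788). Sfpq, Rbm14 and Tra2a were thus called higher at the time at which Hnrnpa1 and Cirbp were called lower. Of these genes, picked with the values in view, only Sfpq kept its call with the day as a block.

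Some called lower genes encode membrane transporters or channels. Slc14a1, the urea transporter gene, had 40.5 and 44.7 CPM at CT14 and 60.4 to 79.2 CPM (median 67.6) elsewhere, 0.627-fold (0.558 to 0.704; adjusted p = 0.00227, edgeR). It was the 1 lower gene left when the CT14 library of day 2 was left out. Slc2a9, a urate transporter gene (-0.52 ± 0.08), and Mcoln2, an endolysosomal channel gene (-0.44 ± 0.07), fell and kept their call with the block. Abcb1b, which encodes a drug efflux pump, stood at -0.32 ± 0.06 (blocked adjusted p = 0.065).

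Called lower genes with a part in mitochondria or metabolism are given next. Nmnat3, which makes NAD in mitochondria, had 7.56 and 7.67 CPM against 10.3 to 14.8 CPM, 0.628-fold (0.540 to 0.730). Lyrm7, an assembly factor gene of respiratory complex III, stood at 6.07 and 6.00 CPM against 8.00 to 11.6 CPM (-0.63 ± 0.11; blocked adjusted p = 0.0579), and Fbxl4, which protects mitochondria from degradation, at -0.55 ± 0.11 (blocked adjusted p = 0.0778). None of 90 tested nuclear-encoded respiratory chain genes and none of 21 mitochondrially encoded transcripts passed, beside 1.13% of all tested genes. Cyp4f13, a cytochrome P450 gene, fell to 0.677-fold (0.596 to 0.769), from 25.6 to 37.3 CPM elsewhere to 21.2 and 19.1 CPM. Gstp3, a glutathione transferase gene that may share reads with its close paralogues, fell by 0.55 ± 0.08 on the log2 scale. Mettl27, a putative methyltransferase gene, had 11.1 and 8.97 CPM against 13.3 to 20.3 CPM (-0.74 ± 0.11), and it was the 1 lower gene left without the CT14 library of day 1.

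In DNA maintenance, Cenpb, which encodes a protein that binds centromere repeats, had 42.5 and 43.6 CPM at CT14 and 57.1 to 68.2 CPM elsewhere, 0.695-fold (0.628 to 0.769; adjusted p = 0.00466, edgeR). Eme2, a partner of the MUS81 nuclease, stood at 18.4 and 18.9 CPM against 23.6 to 31.4 CPM (-0.55 ± 0.09). The repair genes Msh3 (-0.27 ± 0.05) and Alkbh3 (-0.33 ± 0.07) passed without the block only (blocked adjusted p = 0.0852 and 0.0895). Nt5dc1, which belongs to a family of nucleotidases, had 33.6 and 34.6 CPM against 43.0 to 51.6 CPM, a narrow range that gave it an adjusted p of 0.00268 (edgeR).

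Other called lower genes encode signalling or surface proteins. Cd46, a complement regulator gene that is low in most mouse tissues, had 3.80 and 3.64 CPM against 5.04 to 8.88 CPM (-0.82 ± 0.16; blocked adjusted p = 0.0734). Klrd1, which encodes the NK receptor chain CD94, stood at 158 and 150 CPM against 176 to 204 CPM (-0.28 ± 0.05), the only 1 of 25 effector genes to pass, while the perforin gene Prf1 of that list was at 0.28 ± 0.06 (adjusted p = 0.0572). Summed NK cell markers were 145 and 166 CPM at CT14 and 81.8 to 222 CPM elsewhere, and 0 of 8 passed. The kinase scaffold gene Ksr2 had 5.54 and 5.12 CPM, but the CT2 libraries were as low at 5.09 and 5.22 CPM (-0.58 ± 0.11; blocked adjusted p = 0.0524), and the phosphodiesterase gene Pde11a stood at -0.56 ± 0.11 (blocked adjusted p = 0.078).

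Within the interleukin 1 receptor cluster on chromosome 1, 3 of 6 tested genes fell, and 2 of the 3 calls were lost with the day as a block. Of all tested genes 0.567% were lower. The cluster was picked with the values in view, so its count is no test against that share. Il18r1 and Il18rap, which encode the 2 chains of the interleukin 18 receptor, lie at 40465552 to 40500854 and 40515362 to 40551705 on the plus strand. Il18r1 had 123 and 117 CPM at CT14 and 141 to 178 CPM (median 157) elsewhere, 0.762-fold (0.695 to 0.836; adjusted p = 0.0137, edgeR), and Il18rap 61.0 and 55.5 CPM against 66.5 to 91.2 CPM. Il1rl2, the interleukin 36 receptor gene, was at 9.77 and 9.61 CPM against 11.7 to 16.7 CPM (-0.52 ± 0.10). With the day as a block Il18r1 passed, and Il18rap and Il1rl2 had adjusted p = 0.078 and 0.0662. The neighbours Il1r2, Il1r1 and Il1rl1 stood at 2.15, 3.57 and 4.13 CPM on average, with log2 differences of -0.23 ± 0.28, -0.07 ± 0.25 and -0.14 ± 0.22. Il1rl1 ends 136 bases before Il18r1 starts. Of 25 genes in the list of cytokine receptors and STAT5 feedback, Il18r1 alone passed, and Cish, a feedback inhibitor of STAT5 signalling, stood at 0.54 ± 0.12 (adjusted p = 0.0592).

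**Figure D4:**
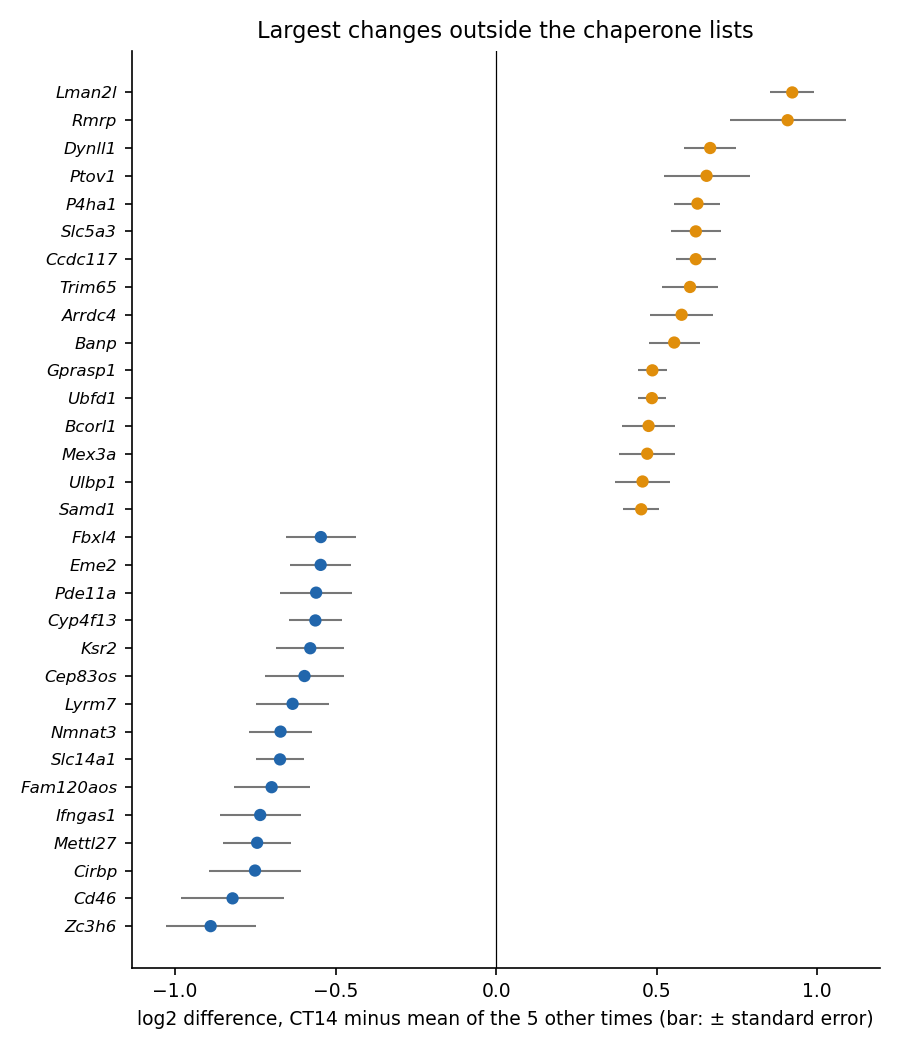
Points are log2 differences of CT14 from the mean of the 5 other times and bars are standard errors, for the 16 largest rises and the largest falls, 1 of the 16 left out, outside the chaperone lists at 5 CPM or more. Lman2l leads the rises at 0.92 and Zc3h6 the falls at -0.89.

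Transcripts annotated as not coding for protein made up 25 of the 93 lower genes, 2 of them pseudogenes. Ifngas1, a long noncoding RNA of the interferon gamma locus on chromosome 10, had 8.83 and 7.97 CPM at CT14 and 10.7 to 18.8 CPM elsewhere, 0.601-fold (0.496 to 0.728; adjusted p = 0.0243, edgeR). Many of these transcripts start beside a coding gene on the other strand. The counts used were those of the sense strand, and how many reads of the other strand they hold was not tested. With 5′ ends at most 1000 bases from each other, 10 of the 25 (40%) had a tested head-to-head neighbour, against 16.79% of all tested genes of this kind, and none of the 10 neighbours passed. Over all tested genes of this kind, 5 of 554 such neighbours were higher and 3 lower. A count of 0 among 10 is near that share. Fam120aos fell by 0.70 ± 0.12 on the log2 scale, for example, while Fam120a, which starts 270 bases away, stood at 0.03 ± 0.06. Cep83os stood at -0.60 ± 0.12 (blocked adjusted p = 0.0826) and Cep83 at 0.05 ± 0.06. Zfp148, Cox10, Prkag2, Mosmo, Lig3, Irf2 and Mmaa likewise missed the threshold beside a lower noncoding partner, with values from -0.08 to 0.17. The tenth neighbour, Rn7sk beside C920006O11Rik, stood at 1.08 ± 0.27 (adjusted p = 0.0891).

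Coding genes were paired in the same way. In all, 26 of the 93 lower genes had 27 such neighbours, of which 0 passed, and their median log2 difference was 0.02. Over all tested genes 21 of 2956 such neighbours were higher and 26 lower, so a count of 0 among 27 is near that background. Arsg, a sulfatase gene, had 1.93 and 1.36 CPM against 2.67 to 5.17 CPM (-1.11 ± 0.20; blocked adjusted p = 0.0504), and Slc16a6, 224 bases away, stood at -0.03 ± 0.07. For Hnrnpa1 and Cbx5 the pair of values was -0.36 ± 0.07 and 0.00 ± 0.07. Of the 93 higher genes 21 had a head-to-head neighbour, and 6 of the 21 neighbours passed, all upward. These 6 are only 3 pairs, each counted from both sides because both members were called. Fkbp4 (0.67 ± 0.07) was paired with the noncoding Gm10069 (1.15 ± 0.20; 1.21 and 1.24 CPM against 0.249 to 0.864 CPM), Tmem33 with Gm42670 (0.80 ± 0.16; blocked adjusted p = 0.0826), and Ints13 (0.27 ± 0.05) with Fgfr1op2 (0.24 ± 0.04; blocked adjusted p = 0.0635). With RSEM expected counts Gm10069 and Gm42670 lost their call (adjusted p = 0.179 and 0.0876, edgeR). Whether reads of Fkbp4 and Tmem33 entered the counts of these antisense partners was not tested. A pair of overlapping genes moved in opposite directions. The antisense RNA 9330179D12Rik overlaps the start of Ccnd2 on chromosome 6 and stood at 0.311 and 0.212 CPM against 0.455 to 1.097 CPM (-1.53 ± 0.30; adjusted p = 0.0405, 0.0733 with the block), while Ccnd2 rose.

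Medians over the called genes are given next for each day. The genes were called on both CT14 libraries together, so likeness of the CT14 medians between the days was favoured by the choice. Over the 93 lower genes the median log2 distance from the mean of the 10 other libraries was -0.47 in CT14 of day 1 and -0.49 in CT14 of day 2. At CT18 and CT22 these genes were still below that mean, with medians from -0.14 to -0.09, and at CT6 and CT10 above it, from 0.03 to 0.17. The 19 chaperone genes had medians of 0.61 and 0.68 at CT14, 0.15 and 0.16 at CT18, and -0.21 and -0.16 at CT6. The 74 other higher genes had 0.43 and 0.41 at CT14, 0.11 and 0.06 at CT18, and -0.12 and -0.099 at CT6. Since these genes were chosen for their CT14 value, only the order of the other times is information: among these, the mean was highest at CT18 in 51 of the 93 higher genes and lowest at CT6 in 63. Among the 93 lower genes it was lowest at CT22 in 45 and at CT18 in 36, and highest at CT6 in 36 and CT10 in 35. Over all 16396 tested genes, the highest of the other times was CT18 in 2223, CT6 in 2479 and CT10 in 4339. The lowest was CT6 in 3113, CT22 in 3245 and CT18 in 2565. CT10 was thus the most frequent highest time over all tested genes.

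**Figure D5:**
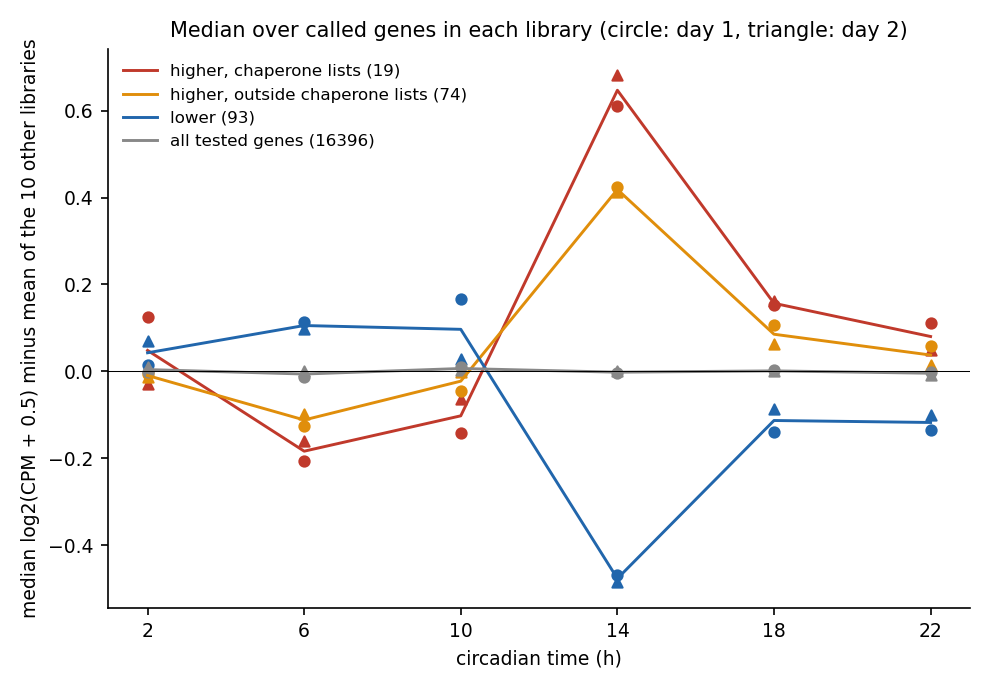
The y axis gives the median, over the genes of each group, of log2(CPM + 0.5) minus the mean of the 10 libraries outside CT14, and the x axis circadian time in hours (circles day 1, triangles day 2, lines the mean of both). All tested genes stay near 0 in each library, and the 3 called groups leave it furthest at CT14.

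The difference of CT14 from the other times was also compared between the days. Of 16396 genes, 0 (0%) passed the interaction test by edgeR, with 157 at an unadjusted p under 0.05 and a smallest adjusted p of 0.291, and DESeq2 called 0, while limma on TPM called 13. For Hsph1 the log2 difference was 1.45 on day 1 and 1.54 on day 2, for Lman2l 0.90 and 0.91, and for Cirbp -0.62 and -0.85. With 1 CT14 library a day, only large differences could be seen.

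Of all tested genes 1.13% were called in either direction, so a count of 0 in each list of this paragraph is near that share. Of 12 core clock genes 0 passed, with a median of 0.02, and of 10 clock outputs 0, with a median of 0.16. Cry1, a repressor of the clock, stood at 34.3 and 38.1 CPM against 26.5 to 33.4 CPM (0.22 ± 0.07; adjusted p = 0.211), and Per2 at 15.3 and 15.5 CPM against 10.3 to 16.2 CPM. None of 19 genes that respond to glucocorticoids passed, with a median of -0.02 and Cxcr4 at 0.28 ± 0.07, and none of 22 immediate early genes did, with a median of 0.06. None of 25 T cell receptor signalling genes passed, and Cd3e stood at 0.01 ± 0.08. Fatty acid oxidation (0 of 16), glycolysis (0 of 17), sterol synthesis (0 of 20), amino acid metabolism (0 of 15), ribosome biogenesis (0 of 24), MHC class I presentation (0 of 13) and oxidative stress genes (0 of 16) had medians from -0.02 to 0.07. A list without a passing gene does not show that its genes were equal at all times.

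Of 108 tested immunoglobulin V segments 4 were called higher and 0 lower, beside 0.567% of all tested genes in each direction. For 3 of the 4 the CT14 libraries differed. Igkv6-32 had 2.21 CPM at CT14 on day 1 and 8.37 on day 2, against 0.403 to 1.67 CPM elsewhere. Igkv6-25 was high only on day 2 (6.12 against 0.498 CPM) and Ighv1-75 only on day 1 (3.76 against 0.394 CPM), so each of these calls rests on 1 library. Igkv14-111 had 3.70 and 3.76 CPM against 0.887 to 2.41 CPM. With the block, Igkv6-25, Ighv1-75 and Igkv14-111 had adjusted p = 0.108, 0.0635 and 0.0693. V segments resemble each other and reads may be split among them. Summed over 108 tested segments, CT14 had 97.0 and 110 CPM and the others 43.7 to 206 CPM. Summed plasma cell markers were 21.1 and 23.6 CPM against 9.09 to 44.3 CPM, with all 4 tested having a higher mean at CT14, B cell markers 992 and 927 against 879 to 1115 CPM, and their part in these calls was not tested.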

How the data were processed

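Per the labels, RNA was extracted with TRIzol and RNeasy and made into libraries with a KAPA HyperPrep polyA kit. Per the submitters' processing notes, RSEM 1.2.28, STAR 2.5.1b, Trimmomatic 0.35 and bcl2fastq 2.19 were used, with GRCm38. For the annotation, the release is not given in the sources used here. Raw read counts were deposited by the authors gene by gene for each library, with a column for each strand setting. Column 4 was used, since 77.6% to 80.9% of fragments matched no gene in the other stranded column. Rows that name no gene held 29.3% to 31.2% of fragments and were left out. The authors also deposited RSEM expected counts (estimated, rounded here) and TPM values, which entered alternatives, and TPM gave levels per length. Of 50600 identifiers, 50376 matched GENCODE M21, the source of coordinates.

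The count model was fitted in edgeR 4.0.16 (R 4.3.3): filterByExpr by circadian time, TMM scaling, a factor of 6 times, and the contrast of CT14 with the mean of the other 5, Benjamini-Hochberg adjusted. A second model tested CT14 by day. DESeq2 1.42.0 and limma 3.58.1, on log2(TPM + 1) for genes of at least 1 TPM on average, were alternatives. Fold intervals are 95%. Values after ± are standard errors.

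By the labels a replicate number is a collection day, which pairs libraries across times. As a check, day 2 minus day 1 differences over 10153 genes were correlated for each of 15 pairs of times, giving r from -0.61 to 0.35 (median 0.09), with 6 above 0.1. The 2 libraries of each time differed by more than counting noise, with chi-square over degrees of freedom lowest at CT18 (2.87), highest at CT2 (35.9) and 5.32 at CT14.

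The contrast, the lists and the named genes were chosen with earlier results of these data known. The naming rule took, at 5 CPM or more and without predicted genes, clones and pseudogenes, the 16 largest changes each way outside the chaperone lists, the 10 chaperone genes of smallest p, the 2 genes of smallest p in each other list, and Cirbp, Rbm3, Hsf1, Cd8a, Cd8b1 and Cd3e. Some genes it took are not reported here, and further genes were picked with their values in view. The scripts were tested on simulated data. Promoter windows are from RefSeq on GRCm38.p6.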

Additional observations from a re-analysis of the deposited data

Results flagged for a closer look

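In groups of 10 libraries outside CT14, a value was marked when its gap to the nearest other, divided by the whole range, exceeded Dixon's 95% critical value, which chance does in about 1 of 20 groups. Of 203 measures, 19 were marked, and 12 of these lay in CT2 of day 1. There Hsp90aa1 had 510.4 CPM (next highest 330.9), Hspe1 191.3, Dnajc10 112.4, Cd3g 822.8, Ndufs1 118.0, Ndufa7 66.57 and mt-Nd5 3288 CPM. The same library had the highest shares of multimapping reads (9.631%), ambiguous reads (1.52%), mitochondrially encoded counts (3.407%), ribosomal protein counts (13.35%) and counts on its 50 most abundant genes (16.95%). CT6 of day 1 was marked for Rangap1 (117.4 CPM, the lowest), Il18rap (91.22 CPM, the highest), Aldoa (285.3 CPM, the lowest) and Jchain, a plasma cell gene (29.67 CPM, the highest, next 11.63). In CT10 of day 2 Cish had 13.03 CPM and 8.567% of fragments were unmapped. Vcan, a monocyte gene, reached 57.85 CPM in CT22 of day 2. Each of these libraries belongs to the side against which CT14 was set.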

How the results depend on the processing

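The counts of genes above (93), below (93) and above outside the chaperone lists (74) at CT14 moved by over 1.5 times under several alternatives. The cause was not tested. Without a filter on low counts there were 336 higher, 352 lower and 314 higher outside the lists. With DESeq2 there were 158, 187 and 137, with limma on log2(TPM + 1) 28, 7 and 13, and with the other times pooled as a single group 55, 31 and 40. At a mean of at least 5 CPM the lower count was 159. Without both CT2 libraries the counts were 273, 320 and 248, without CT6 53, 23 and 34, without CT10 60, 27 and 41, and without CT18 the last 2 were 52 and 48. Leaving out each library in turn gave 16 to 332 higher, 1 to 360 lower, 9 to 26 chaperone and 7 to 310 other higher genes. Outside those, the chaperone count stayed between 15 and 25 in every alternative run. With the replicate block (day), the lower count was 32 and the higher count outside the lists 45, and the blocked adjusted p stands in the report beside the genes it describes whose call it ended. The day difference of CT14 gave 0 genes except with limma on TPM (13) and, leaving out each library in turn, 0 to 1, the gene Ighv1-19 without CT10 of day 2. Small changes of weakly expressed genes are limited by there being 2 CT14 libraries.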

Other observations

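Some lists without a passing gene had means mostly on the same side at CT14. Over all tested genes 8501 of 16396 had a lower mean, and 1.13% passed. Of 13 genes of NF-kB feedback, 0 passed, 12 had a higher mean at CT14 and 7 had both CT14 libraries above the rest, against 4.72% of all tested genes. The inhibitor gene Nfkbie had 60.7 and 60.0 CPM against 45.7 to 57.1 CPM (log2 0.22 ± 0.06; adjusted p = 0.0902, edgeR), and Nfkbia 206 and 209 against 168 to 192 CPM (adjusted p = 0.112). Of 19 naive T cell and quiescence genes, 0 passed and 16 had a lower mean, with a median of -0.12. Il7r, the interleukin 7 receptor gene, stood at 425 and 427 CPM against 439 to 620 CPM (-0.30 ± 0.08; adjusted p = 0.093).

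Of 10 nuclear noncoding and snoRNA host genes, 0 passed and 9 had a lower mean, with Neat1, the scaffold RNA of paraspeckles, at 231 and 181 CPM against 206 to 315 CPM (adjusted p = 0.136). Of 88 cytosolic ribosomal protein genes, 0 passed and 68 had a lower mean, with a list median of -0.04 on the log2 scale. The share of counts on such genes was 9.95% and 10.31% at CT14 and had a median of 10.27% in the others. CT2 of day 1 was highest at 13.35%, and its part in these lower means was not tested. Igtp, an interferon-induced GTPase gene, stood at 195 and 199 CPM against 150.4 to 179 CPM (0.27 ± 0.06; adjusted p = 0.0714), and the sterol synthesis gene Sqle at 7.25 and 7.85 against 8.95 to 10.1 CPM (-0.35 ± 0.09; adjusted p = 0.0881). The kinase gene Txk had 133 and 128 CPM against 137 to 167 CPM (adjusted p = 0.0762). Among the higher genes were 5 pseudogenes, 1 of them Ptges3-ps, which may share reads with Ptges3.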
